A study of Mus musculus with 18 samples.

Results

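The 7 genes described here are *Malat1*, a long noncoding RNA, and the protein-coding genes *Atxn2l*, *Akap8l*, *Clasrp*, *Pcnx3*, *Ptpn23* and *Fam168a*, out of 53468 genes in the count table. They were chosen by their levels in these 18 libraries, which had been seen to shift with *Malat1* between libraries of the same region and genotype. Their correlations and their differences between genotypes are therefore given as description, without a test. The differences between brain regions were not the measure used to choose them and were tested. The tests use the same 18 libraries, though, and the forebrain values that made the shift large also enter the forebrain means.

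*Malat1* RNA stays in the nucleus, where it gathers in nuclear speckles, bodies that hold splicing factors of the SR protein family. It is among the most abundant long noncoding RNAs of the brain. Its mature 3′ end is made by RNase P, which cuts off a small tRNA-like RNA called mascRNA and leaves an A-rich tract that is encoded in the genome, in place of an added poly(A) tail. An intron that is kept in an otherwise finished transcript often holds that transcript in the nucleus, so nuclear RNA and intron retention are commonly measured together. Of the protein-coding genes, *Clasrp* encodes an SR-related protein that binds the splicing kinase CLK4, and *Akap8l* encodes a nuclear relative of the anchoring protein AKAP8. *Atxn2l* encodes a relative of ataxin-2 that is found in stress granules. *Pcnx3* encodes a membrane protein of the pecanex family, and *Ptpn23* encodes HD-PTP, which works with the ESCRT machinery in endosomal sorting. Neither these last proteins nor the product of *Fam168a* is known chiefly for RNA processing, so a name such as RNA processing genes does not cover all members.

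Poly(A) RNA was sequenced from forebrain, midbrain and hindbrain of 3 Fmr1CRE knock-in mice and 3 wild-type mice at postnatal day 25. All were of the same litter, on a C57BL/6 background, and each mouse gave 1 library of each region, so the 18 libraries form 6 groups of 3. The Fmr1CRE mice carry, by CRISPR/Cas9 editing of the endogenous locus, a single variant in a noncoding element near *Fmr1*. Several independent lines were made, and which of them gave these mice is not given in the sources used here. The wild-type mice carry no edited allele.

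Total counts lay between 22455512 and 28061185 per library. The hindbrain marker genes summed to 321 to 621 CPM, that is counts scaled to the size of the library, in hindbrain and to 0.00 to 5.599 in forebrain, where none of the 7 was counted in all 6 libraries. The forebrain markers summed to 207 to 267 CPM in forebrain and to 7.29 to 12.4 in hindbrain, but still to 130 to 229 in midbrain. The midbrain markers were highest in midbrain, at 50.7 to 121 CPM against 2.84 to 18.0 in forebrain and 14.1 to 37.0 in hindbrain. Markers of neurons, astrocytes, oligodendrocytes, microglia and endothelium were counted in all libraries.

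The forebrain libraries of replicate 3 stood apart. Of 22 genes that differed at least 8-fold, in the same direction, between the mice Fmr1CRE 3 and wild-type 3 in both midbrain and hindbrain, 18 had the reverse order in forebrain, and 11 had it by at least 8-fold. The same check in the 26 other combinations of an Fmr1CRE mouse, a wild-type mouse and a region found at most 5 genes reversed by at least 8-fold. Reversal of any size was less distinct. Between Fmr1CRE 3 and wild-type 2 it held for 17 of 23 genes in midbrain and 17 of 32 in forebrain. The labels were kept as given. For the members, forebrain genotype differences, correlations with *Malat1* and some region comparisons are also given without these libraries. Correlations between members, and those of other genes, gene lists and whole-library shares with *Malat1*, are given only with them.

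The members lie on 4 chromosomes. In GRCm38 with the GENCODE M21 annotation, *Malat1* lies at chr19:5795690-5802672 and *Pcnx3* at chr19:5664635-5688908, 106.8 kb away, both on the minus strand. *Atxn2l* (chr7:126491708-126503437, minus strand), *Clasrp* (chr7:19581035-19604486, minus strand) and *Fam168a* (chr7:100706635-100841656, plus strand) are on chromosome 7. *Akap8l* lies at chr17:32321424-32350607 and *Ptpn23* at chr9:110385082-110408213, both on the minus strand. The transcripts of 5 of the 6 protein-coding members are rich in G and C. Mean GC content was 59.9% in *Pcnx3*, 59.7% in *Clasrp*, 58.4% in *Ptpn23*, 57.8% in *Atxn2l* and 55.3% in *Akap8l*, against a median of 49.2% over all genes tested. *Fam168a* stood near that median at 49.1%, and *Malat1* was lower at 42.5%.

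Some of the introns that annotated transcripts of the members retain are shown here. A retained-intron read is any read assigned to such a transcript, including reads from its exons. *Clasrp* has 8 such transcripts of 13, *Pcnx3* 5 of 12, *Ptpn23* 2 of 4 and *Fam168a* 3 of 10, while *Malat1*, *Atxn2l* and *Akap8l* have none. In the sequences shown here (GRCm38, minus strand, 5′ to 3′) the intron is in capitals, and the 20 bases of coding exon on each side are in lower case. Those shown belong, in each gene, to the transcript with the most reads among those that hold a whole annotated intron. For *Pcnx3* that transcript took a mean of 20.9 reads per library. Another retained-intron transcript of *Pcnx3*, in which no whole annotated intron was found, took a mean of 146. That of *Clasrp* keeps an intron of 2395 bases at chr7:19592078-19594472, of which the first and last 30 bases are given. Those of *Pcnx3* and *Ptpn23* keep 80 bases at chr19:5665628-5665707 and 77 bases at chr9:110389396-110389472, both given whole.
Clasrp, start of the intron: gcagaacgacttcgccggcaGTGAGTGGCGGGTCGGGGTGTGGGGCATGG
Clasrp, end of the intron: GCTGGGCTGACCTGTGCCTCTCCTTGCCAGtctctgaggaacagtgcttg
Pcnx3: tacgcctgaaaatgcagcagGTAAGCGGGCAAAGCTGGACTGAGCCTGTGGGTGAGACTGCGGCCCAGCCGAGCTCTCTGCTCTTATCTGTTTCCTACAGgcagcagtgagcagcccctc
Ptpn23: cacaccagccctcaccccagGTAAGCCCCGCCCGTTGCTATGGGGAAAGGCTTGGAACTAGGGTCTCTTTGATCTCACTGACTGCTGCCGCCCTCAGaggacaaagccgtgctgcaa
Over *Clasrp*, *Pcnx3* and *Ptpn23*, 11 retained introns were found in this way, counting each combination of start and end. Some of those in *Clasrp* overlap and share an end. Each of the 11 begins with GT and ends with AG, so each has the ends of an ordinary intron that could be spliced out. Their lengths ran from 77 to 2395 bases.

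*Malat1* was measured in poly(A)-selected RNA, so its A-rich tract is shown as well, since such a tract can be captured like a tail. The longest run of A in the annotated full-length transcript (6983 bases, 1 exon) is 12 A in capitals, at positions 6674 to 6685 from its 5′ end, with 298 annotated bases after it (chr19:5795948-5796039, minus strand). It lies in the tract at which the mature RNA ends, and the bases from gacgctgg on belong to mascRNA.
Malat1, around the run: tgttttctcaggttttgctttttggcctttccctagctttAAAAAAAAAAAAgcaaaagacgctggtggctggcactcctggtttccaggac
Where molecules were captured cannot be told from counts per transcript.

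The promoters of the members did not share a motif among those searched. RefSeq promoters on GRCm38.p6, cut here to the 250 bases before the gene start, gave 9 windows for the 7 genes. The CCAAT box (CCAAT, either strand) was in those of *Atxn2l*, *Ptpn23* and *Akap8l*, and in 33.8% of 32851 promoters of the same length. The GC box (GGGCGG) was in 5 of the 9 windows, against 32.7% of all. These include both windows of *Clasrp*, which overlap and hold the same site. The ETS core (CCGGAAG) was in windows of *Clasrp* and *Pcnx3*, against 6.91%. The sequence TGACGT, a cyclic AMP response element core, was found for *Malat1* alone of the members, against 6.47% of all promoters. The windows of *Malat1* and of *Akap8l* are printed with these matches in capitals. *Akap8l* is the member whose deviations within region and genotype had the highest correlation with those of *Malat1*. The YY1 core (AAGATGG, in 4.49% of all promoters) is also marked, and no marked matches overlap. TATAAA (12.4% of all) and CACGTG (6.02%) were found in 0 of the 9 windows.
Akap8l, chr17:32350578-32350827: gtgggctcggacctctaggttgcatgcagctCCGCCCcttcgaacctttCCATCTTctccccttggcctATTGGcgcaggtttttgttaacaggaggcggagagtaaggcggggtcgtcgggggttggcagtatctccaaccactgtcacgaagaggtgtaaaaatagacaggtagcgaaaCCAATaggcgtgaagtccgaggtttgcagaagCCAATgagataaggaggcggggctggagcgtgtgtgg
Malat1, chr19:5802673-5802922: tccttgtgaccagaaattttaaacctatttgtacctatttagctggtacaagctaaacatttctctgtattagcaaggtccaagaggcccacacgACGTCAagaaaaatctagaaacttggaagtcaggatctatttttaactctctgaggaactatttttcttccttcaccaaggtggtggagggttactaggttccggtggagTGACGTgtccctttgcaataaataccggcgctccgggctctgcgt
Both are given on the strand of the gene. *Malat1* has 2 matches of TGACGT in this window and *Akap8l* has 3 of the CCAAT box.

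*Malat1* varied far more in forebrain and hindbrain than in midbrain. In forebrain it measured 2326, 1825 and 817 CPM in the Fmr1CRE mice 1, 2 and 3, and 1002, 887 and 915 CPM in the wild-type mice. In hindbrain the Fmr1CRE mice gave 557, 780.0 and 895 CPM and the wild-type mice 1355, 1331 and 768 CPM. The midbrain libraries lay close together, with 818, 864 and 811 CPM in Fmr1CRE and 813, 859 and 790.4 CPM in wild-type mice. The forebrain libraries of Fmr1CRE 1 and 2 thus stood above the other 16, the wild-type hindbrain libraries 1 and 2 came next, and the genotypes overlapped in every region. The SD within groups, on the log2 CPM scale and pooled over the genotypes, was 0.56 in forebrain, 0.056 in midbrain and 0.41 in hindbrain. Among 5474 genes with a mean of at least 1000 counts, *Malat1* was at the 98.3rd percentile of this SD in forebrain, the 8.28th in midbrain and the 95.8th in hindbrain.

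*Akap8l* and *Clasrp* had the same forebrain pattern. In forebrain *Akap8l* measured 151, 141 and 55.2 CPM in Fmr1CRE and 65.7, 56.3 and 82.0 CPM in wild-type mice. In midbrain it measured 60.7, 52.5 and 70.6 CPM in Fmr1CRE and 66.6, 60.7 and 70.2 CPM in wild-type mice, and in hindbrain 52.3, 59.0 and 53.0 CPM and 62.4, 68.6 and 42.2 CPM. The forebrain libraries of Fmr1CRE 1 and 2 were the highest of all 18 and Fmr1CRE 3 was the lowest in forebrain. *Clasrp* measured 142, 114 and 42.7 CPM in Fmr1CRE forebrain and 48.6, 46.6 and 72.6 CPM in wild-type forebrain. It measured 49.8, 37.4 and 62.0 CPM in Fmr1CRE midbrain and 61.4, 62.4 and 75.0 CPM in wild-type midbrain, and in hindbrain 65.6, 75.5 and 66.4 CPM and 76.1, 88.3 and 52.9 CPM. For both genes the wild-type hindbrain libraries 1 and 2 were above wild-type 3, as they were for *Malat1*.

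*Atxn2l*, the ataxin-2 relative, measured 214, 222 and 120.4 CPM in Fmr1CRE forebrain and 124.5, 108 and 161 CPM in wild-type forebrain. In midbrain the values were 108, 102 and 129 CPM in Fmr1CRE and 172, 163 and 155 CPM in wild-type mice, and in hindbrain 128, 144 and 114 CPM in Fmr1CRE and 82.0, 96.2 and 76.4 CPM in wild-type mice. Every Fmr1CRE library was below every wild-type library in midbrain and above every one in hindbrain.

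*Pcnx3*, the pecanex relative, and *Ptpn23*, of the endosomal sorting machinery, shared the high forebrain values of Fmr1CRE 1 and 2. *Pcnx3* measured 69.3, 79.1 and 47.4 CPM in Fmr1CRE forebrain and 46.2, 38.9 and 58.0 CPM in wild-type forebrain. These values rest on counts weighted by transcript length. The authors' estimated reads, summed per gene and not scaled to library size, were 1293, 1692 and 1242 in Fmr1CRE forebrain. Wild-type forebrain had 1202, 1075 and 1544, so on reads *Pcnx3* in Fmr1CRE 1 lay below wild-type 3. In midbrain it measured 41.6, 40.9 and 52.1 CPM and 69.7, 66.6 and 47.3 CPM, and in hindbrain 28.3, 28.8 and 32.3 CPM and 38.8, 46.5 and 23.0 CPM. *Ptpn23* measured 82.8, 93.0 and 36.9 CPM in Fmr1CRE forebrain and 47.9, 37.3 and 62.4 CPM in wild-type forebrain, the genotypes overlapping through replicate 3. In midbrain its values were 37.5, 33.4 and 68.8 CPM in Fmr1CRE and 72.8, 60.2 and 45.7 CPM in wild-type mice, and in hindbrain 48.4, 49.1 and 24.3 CPM and 52.9, 58.6 and 24.7 CPM. In midbrain, too, replicate 3 alone kept the genotypes from separating for both genes.

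*Fam168a* ran the other way in forebrain, with 161, 196 and 370.5 CPM in Fmr1CRE and 341, 327 and 353 CPM in wild-type mice. Midbrain gave 307, 338 and 323 CPM in Fmr1CRE and 464, 380.5 and 285 CPM in wild-type mice. Hindbrain gave 225, 229 and 297 CPM in Fmr1CRE and 137, 130.4 and 186 CPM in wild-type mice, without overlap. These values rest on counts weighted by transcript length, in which a transcript of 268 bases with 42.9 to 158 reads weighs heavily. The authors' estimated reads, summed per gene and not scaled to library size, were 5078, 6517 and 7449 in Fmr1CRE forebrain. Wild-type forebrain had 6868, 7769 and 8259. In hindbrain they were 5592, 6880 and 4956 in Fmr1CRE and 4715, 5568 and 5436 in wild-type mice, with overlap. The low libraries in forebrain were the same Fmr1CRE 1 and 2 that were high for *Malat1*.

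**Figure D1:**
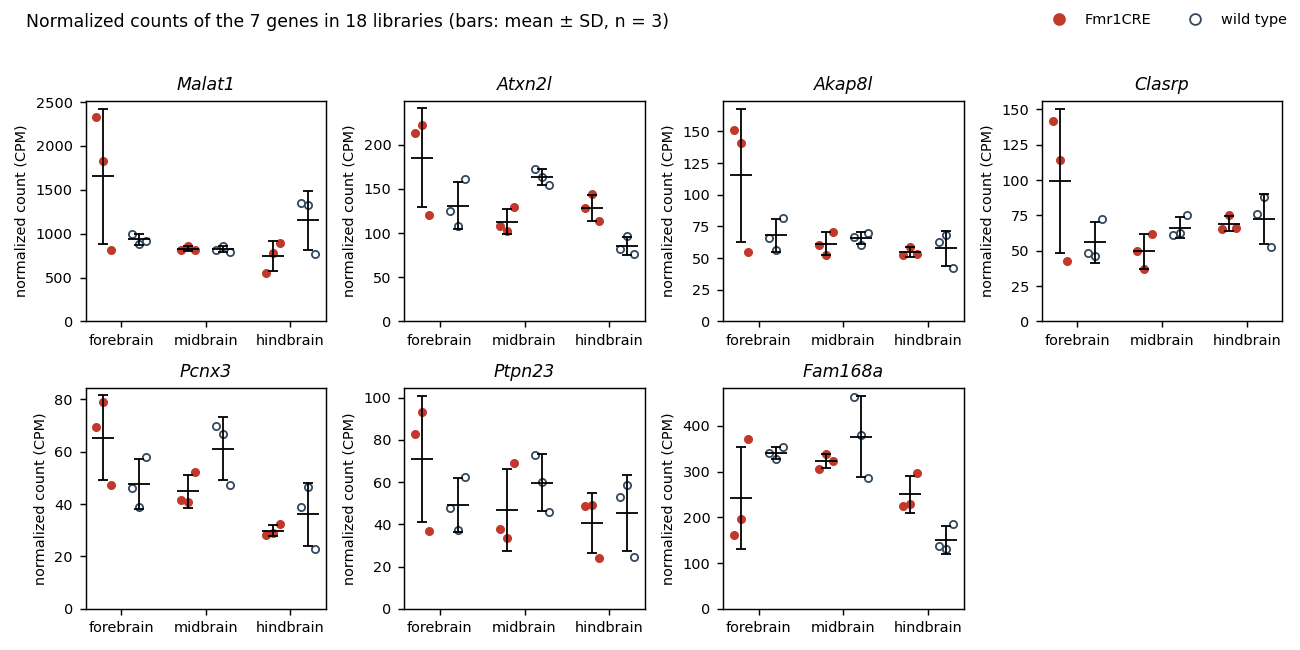
Level of each of the 7 genes in the 18 libraries (vertical axes, CPM; horizontal axes, region; points, single mice, filled for Fmr1CRE and open for wild type; bars, group mean and SD, n = 3). In forebrain the Fmr1CRE mice 1 and 2 reach 2326 and 1825 CPM for *Malat1* while Fmr1CRE mouse 3 is at 817 CPM, and *Fam168a* shows the reverse order.

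Levels of different genes can be set side by side only per length. On the scale of TPM, which divides by transcript length, group means ran from 54.1 to 81.0 for *Malat1* and from 39.5 to 126 for *Fam168a*. They were lower for the other members, at 11.4 to 27.9 for *Atxn2l*, 13.1 to 22.3 for *Clasrp*, 11.3 to 20.9 for *Akap8l*, 5.76 to 14.1 for *Pcnx3* and 5.19 to 8.90 for *Ptpn23*. The level of *Fam168a* depends on a short transcript, and that of *Malat1* on whether a short transcript is counted. A *Fam168a* transcript of 268 bases took 42.9 to 158 reads per library but 63.9% to 82.3% of the gene's TPM. The *Malat1* group means count its transcripts in GENCODE M21, and the full-length transcript alone was at 37.7 to 106 TPM per library. A transcript of 656 bases that is not in GENCODE M21 was assigned to *Malat1* by arithmetic alone. Adding it brought the largest gap between the rebuilt and the deposited count of the gene from 14099 to 18.5. On that assignment it took 6.50% to 10.8% of the gene's reads, and with it counted it would hold 52.7% to 67.7% of the gene's TPM.

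In forebrain 6 of the 7 members were higher in Fmr1CRE by the fitted value and *Fam168a* was lower, and the difference was carried by the Fmr1CRE mice 1 and 2. In forebrain the fitted log2 fold change of Fmr1CRE against wild type, with its SE (n = 3 and 3), was 0.87 ± 0.35 for *Malat1*, 0.88 ± 0.42 for *Clasrp*, 0.81 ± 0.36 for *Akap8l*, 0.57 ± 0.35 for *Ptpn23*, 0.54 ± 0.26 for *Atxn2l*, 0.49 ± 0.23 for *Pcnx3* and -0.47 ± 0.26 for *Fam168a*. With both replicate 3 libraries left out the values moved further from 0, to 1.19 for *Malat1*, 1.48 for *Clasrp*, 1.31 for *Akap8l*, 1.10 for *Ptpn23*, 0.96 for *Atxn2l*, 0.85 for *Pcnx3* and -0.85 for *Fam168a*. The pattern was not that of the other regions. In midbrain *Malat1* was at 0.02 ± 0.076, and the other 6 genes lay between -0.53 (*Atxn2l*) and -0.10 (*Akap8l*). In hindbrain *Malat1* was lower in Fmr1CRE, at -0.64 ± 0.26, while *Atxn2l* was at 0.59 ± 0.13 and *Fam168a* at 0.72 ± 0.17, and the other 4 lay between -0.29 and -0.08. Without replicate 3 the midbrain value of *Ptpn23* moved from -0.35 to -0.89 and that of *Pcnx3* from -0.44 to -0.71, and the hindbrain value of *Malat1* from -0.64 to -1.03.

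Over all genes, edgeR's quasi-likelihood test with Benjamini-Hochberg adjustment called 0 of 18467 genes in forebrain (0%), 1 of 18400 in midbrain (0.00543%) and 0 of 19112 in hindbrain (0%). At an unadjusted p under 0.05 there were 1002, 1135 and 981 genes, and DESeq2 called 31, 62 and 59. The genotypes did not overlap in 0 of the 7 members in forebrain (10.2% of 20363 genes), 1 in midbrain (11.3%) and 2 in hindbrain (10.9%). These were *Atxn2l* in midbrain and *Atxn2l* and *Fam168a* in hindbrain. When the authors' estimated reads were simply summed per gene, the hindbrain difference of *Fam168a* shrank from 0.72 to 0.17 and the forebrain difference of *Pcnx3* from 0.49 to 0.19. That of *Malat1* in forebrain was 0.75 on the same summed reads.

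To describe how the genes moved together, each log2 CPM value was taken as its deviation from the mean of the 3 libraries of its region and genotype. In Fmr1CRE forebrain the *Malat1* deviations were 0.62, 0.27 and -0.89. The mean deviation of *Atxn2l*, *Akap8l*, *Clasrp*, *Pcnx3* and *Ptpn23* in the same libraries was 0.38, 0.38 and -0.76. In wild-type hindbrain *Malat1* deviated by 0.28, 0.26 and -0.54, and in midbrain it stayed between -0.05 and 0.07.

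**Figure D2:**
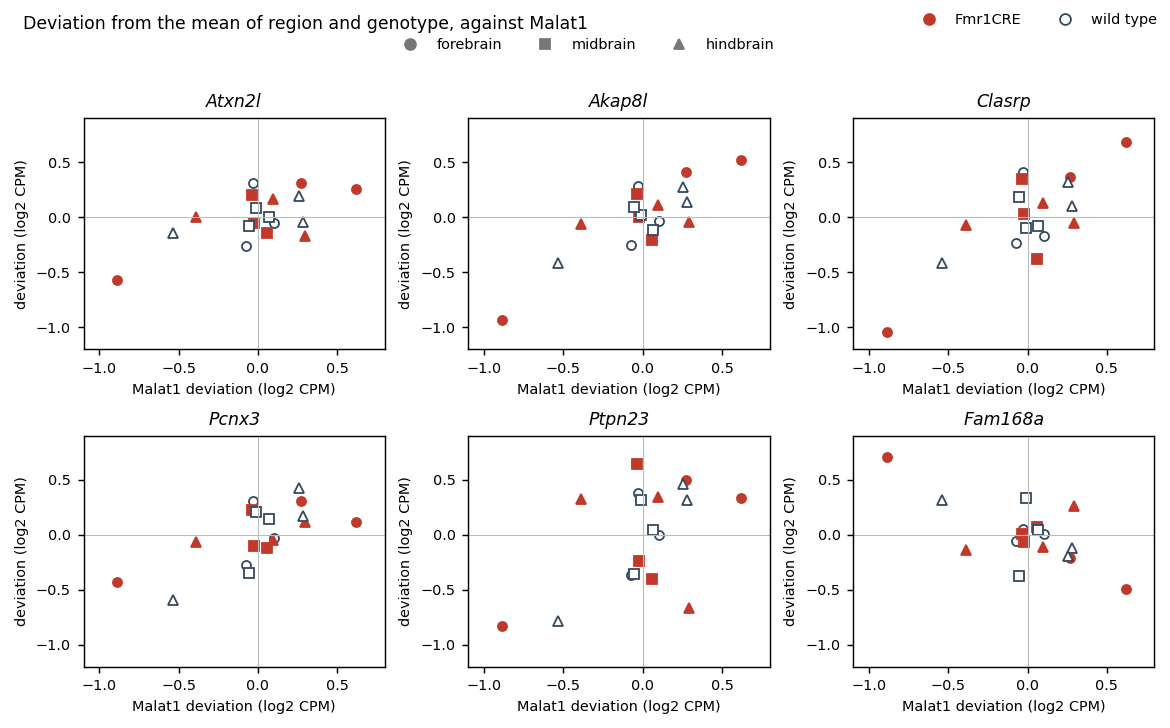
Deviation of each of the 6 genes from the mean of its region and genotype (vertical axes, log2 CPM) against that of *Malat1* (horizontal axes, log2 CPM), 1 point per library, with the shape giving the region and the fill the genotype. The Fmr1CRE forebrain libraries 1 and 3 lie at the ends of the *Malat1* axis, at 0.62 and -0.89, and the midbrain libraries stay near 0 on that axis.

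Over the 18 deviations the correlation with *Malat1* (Pearson's r, with Spearman's rho) was 0.84 (0.58) for *Akap8l*, 0.78 (0.48) for *Clasrp*, 0.68 (0.59) for *Pcnx3*, 0.64 (0.39) for *Atxn2l*, 0.52 (0.36) for *Ptpn23* and -0.69 (-0.38) for *Fam168a*. The 3 deviations of a group sum to 0 and the libraries of a mouse share the animal, so the points are not independent. Over all 20362 other genes tested the median r was -0.06, with r of 0.7 or more in 3.48% of genes and of -0.7 or less in 3.82%. *Akap8l* and *Clasrp* passed 0.7 and no member passed -0.7. An r as high as that of *Akap8l* was reached by 0.575% of genes, as high as that of *Clasrp* by 1.51%, and as high as that of *Ptpn23* by 9.68%. An r as low as that of *Fam168a* was reached by 4.40%.

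The correlation had its highest values in forebrain, except for *Pcnx3*, and the opposite sign in midbrain for 5 of the 6 genes. Within the 6 forebrain libraries r was 0.93 for *Akap8l*, 0.92 for *Clasrp*, 0.85 for *Ptpn23*, 0.83 for *Atxn2l*, 0.72 for *Pcnx3* and -0.99 for *Fam168a*. Within midbrain, where *Malat1* hardly varied, it was -0.86 for *Akap8l*, -0.77 for *Clasrp*, -0.35 for *Atxn2l*, -0.21 for *Ptpn23*, 0.23 for *Pcnx3* and 0.42 for *Fam168a*. Within hindbrain it was 0.84 for *Pcnx3*, 0.81 for *Akap8l* and 0.78 for *Clasrp*, and 0.32 for *Ptpn23*, 0.29 for *Atxn2l* and -0.32 for *Fam168a*. Over the 6 groups of 3 the sign was positive in 5 for *Pcnx3*, in 4 for *Akap8l*, *Atxn2l* and *Ptpn23*, in 3 for *Clasrp*, and in 4 for *Fam168a*, whose r over all libraries is negative. With the Fmr1CRE forebrain libraries 3 and 1 left out, the 2 farthest from the median of *Malat1*, r over the other 16 was 0.68 for *Pcnx3*, 0.59 for *Akap8l*, 0.44 for *Clasrp*, 0.30 for *Ptpn23*, 0.26 for *Atxn2l* and -0.24 for *Fam168a*. The r of *Atxn2l*, *Ptpn23* and *Fam168a* with *Malat1* was thus much smaller in size without those 2 libraries together. Leaving out all libraries of mouse Fmr1CRE 3, or of mouse Fmr1CRE 1, gave 0.65 and 0.65 for *Ptpn23*. In the same order it gave 0.37 and 0.63 for *Atxn2l* and -0.50 and -0.71 for *Fam168a*.

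Without both forebrain libraries of replicate 3, r was 0.64 for *Pcnx3*, 0.63 for *Akap8l*, 0.51 for *Clasrp*, 0.23 for *Ptpn23*, 0.19 for *Atxn2l* and -0.24 for *Fam168a*. With the whole forebrain left out, the values were 0.71 for *Pcnx3*, 0.62 for *Akap8l*, 0.47 for *Clasrp*, 0.24 for *Ptpn23*, 0.19 for *Atxn2l* and -0.18 for *Fam168a*. How reads were assigned to transcripts mattered most for *Pcnx3*, whose r fell from 0.68 to 0.21 when the reads were summed per gene. *Akap8l* stayed at 0.84 and *Clasrp* was at 0.82 on the summed reads. With the trend of each library on GC content and length taken out, r was 0.86 for *Akap8l*, 0.84 for *Pcnx3*, 0.78 for *Clasrp*, 0.73 for *Atxn2l*, 0.67 for *Ptpn23* and -0.75 for *Fam168a*.

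**Figure D3:**
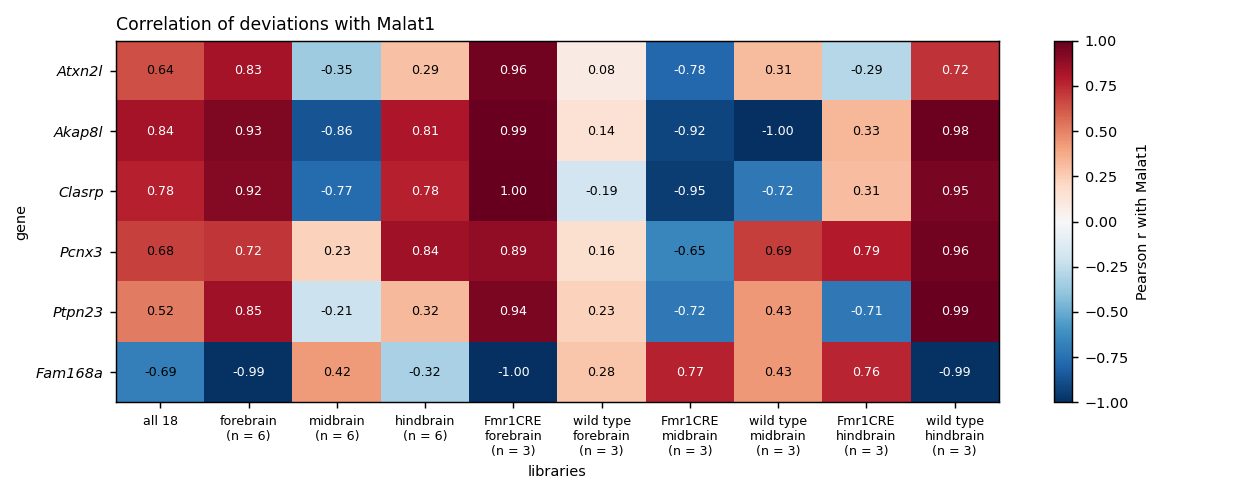
Pearson's r with *Malat1* (colour and printed value, from -1 to 1) of each of the 6 genes (rows) over all 18 libraries, within each region (n = 6) and within each region and genotype (n = 3), on deviations from the group mean. Forebrain holds the values from 0.72 to 0.93 and the -0.99 of *Fam168a*, and midbrain has the opposite sign for all genes but *Pcnx3*; an r over 3 libraries is close to 1 or -1 very easily.

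The 5 genes with a positive r had, by the median, a higher correlation with each other than with *Malat1*. Their 10 pairs had r between 0.68 and 0.98 over the 18 libraries, with a median of 0.79, and *Akap8l* and *Clasrp* had the highest at 0.98. The median over the pairs was 0.97 in forebrain, 0.69 in midbrain and 0.80 in hindbrain. Pairs in midbrain ran from 0.084 to 0.99, and *Pcnx3* had the low values there with *Clasrp* (0.084) and *Akap8l* (0.17). Over all genes the median r with *Akap8l* was -0.06, and 3.59% reached 0.7.

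Among genes with a mean of at least 1000 counts, the 5 with the highest r with *Malat1* over the 18 libraries were *Paf1* (0.95), a subunit of an elongation complex of RNA polymerase II, *Phf14* (0.91), *Las1l* (0.91), which takes part in ribosomal RNA processing, *Gm47164* (0.91), a locus annotated as still to be experimentally tested, and *Hnrnpl* (0.91), a splicing regulator. The 5 lowest were *Necap1* (-0.93) and *Grb2* (-0.92), an endocytic adaptor and a signalling adaptor, *Gnai1* (-0.93), a G protein subunit, *Paip2b* (-0.93), a translational repressor, and *Tsn* (-0.91). The 7 genes themselves were left out of this ranking.

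Most of the other nuclear RNAs and speckle protein genes listed had positive correlations with *Malat1*. The lists were written with earlier results of these data known, so their values are description, without a test. They are given over all 18 libraries only. Of 10 other nuclear long noncoding RNAs, 10 had a positive r, with a median of 0.58 against -0.06 over all genes. *Kcnq1ot1*, an imprinted antisense RNA, was at 0.88, and the imprinted-cluster RNAs *Mirg* and *Meg3* were at 0.75 and 0.71. Of 39 genes of speckle and SR proteins and their kinases, 34 were positive, with a median of 0.59. *Srrm3* (0.82), *Srsf11* (0.79), *Srrm2* (0.77) and *Son* (0.76), the last 2 encoding scaffolds of the speckle, were among 10 at 0.7 or more, and the SR kinase *Srpk2* was at -0.73. The 9 paraspeckle genes did not share a sign, with 4 positive and a median of -0.08. They ran from 0.79 for *Hnrnpm* to -0.78 for *Hnrnpk*, and *Neat1*, the RNA that paraspeckles are built on, was at 0.64. Of 8 relatives of the members 3 were positive, with *Akap8* at 0.85 and *Pcnx4* at -0.84 as the extremes. *Fam168b* was at -0.68, near the -0.69 of *Fam168a*. Of 77 cytosolic ribosomal protein genes 64 were positive, with a median of 0.15, and of 24 mitochondrially encoded genes 8 were, with a median of -0.13.

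Properties of the whole library moved with the members. The share of all reads on transcripts annotated as retaining an intron had r = 0.81 with *Malat1* and 0.76 with the mean of the 5 genes, on deviations from the group mean over the 18 libraries. This share was 5.62%, 4.77% and 3.60% in Fmr1CRE forebrain 1, 2 and 3. It lay at 3.59% to 3.93% in wild-type forebrain, 3.74% to 4.33% in midbrain and 4.22% to 4.68% in hindbrain. The share on protein-coding transcripts had r = -0.79 with *Malat1*, and that on mitochondrial ribosomal RNA (0.926% to 1.80% of reads) had r = 0.66. The total count had r = -0.12 with *Malat1*. The summed astrocyte markers, 4 of 4 with a negative r, had -0.71 with *Malat1* and -0.43 with the mean of the 5 genes. Their sum was 914 to 1080 CPM in Fmr1CRE and 1050 to 1256 CPM in wild-type forebrain, 1192 to 1335 and 1089 to 1199 CPM in midbrain, and 1723 to 2061 and 1551 to 2146 CPM in hindbrain. The neuron markers, 4 of 4 negative, had -0.43 with *Malat1* and -0.61 with the 5 genes, the oligodendrocyte markers, 4 of 4 negative, -0.33 and -0.32, and the blood markers, 3 of 3 positive, 0.49 and 0.61. The midbrain region markers, 5 of 5 negative, had -0.65 and -0.54. In forebrain the neuron sum was 2442 to 3081 CPM in Fmr1CRE and 2556 to 3074 CPM in wild-type mice, the oligodendrocyte sum 9673 to 12423 and 10400 to 11328 CPM, and the blood sum 262 to 917 and 423 to 638 CPM. None of the astrocyte, neuron, oligodendrocyte and blood markers was at 0 in any library. The part that these shares and markers have in the shift of the members was not tested, nor was that of the sequencing pool, whose members are not given. Fewer cells of a type and less RNA per cell cannot be told apart in these bulk samples.

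In *Clasrp*, retained-intron transcripts took about as many reads as all its other transcripts. The share of its reads on such transcripts was 57.3%, 62.8% and 45.8% in Fmr1CRE forebrain and 55.4%, 40.2% and 55.3% in wild-type forebrain. In midbrain it was 54.5%, 54.8% and 51.1% and 52.5%, 44.6% and 48.6%, and in hindbrain 60.3%, 62.5% and 59.5% and 55.2%, 44.8% and 50.8%. The hindbrain values did not overlap between the genotypes. The transcript that keeps the 2395-base intron held 24.95% to 47.4% of the gene's reads (median 36.7%), and another, annotated as a target of nonsense-mediated decay, held 30.8% to 52.8% (median 39.9%). The only *Clasrp* transcript annotated as protein-coding held 0% to 10.4%, with a median of 0 reads. Single-end 50-base reads seldom tell such overlapping transcripts apart, so these are the authors' estimates and not counts of distinct molecules.

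*Pcnx3* had a smaller share with a wider range. It was 38.5%, 17.6% and 13.5% in Fmr1CRE forebrain and 14.9%, 10.3% and 16.2% in wild-type forebrain. In midbrain it was 12.3%, 10.5% and 18.5% and 16.1%, 19.5% and 12.2%, and in hindbrain 11.6%, 16.8% and 21.9% and 33.2%, 32.7% and 25.4%, where every Fmr1CRE library was below every wild-type one. Fmr1CRE forebrain 1, the library with the highest *Malat1*, also had the highest *Pcnx3* share.

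The *Ptpn23* share was below 10% in all libraries. It was 8.18%, 7.58% and 3.15% in Fmr1CRE forebrain and 5.51%, 4.54% and 5.48% in wild-type forebrain. Midbrain gave 5.71%, 2.56% and 5.61% and 5.07%, 4.26% and 4.87%, and hindbrain gave 7.02%, 7.77% and 2.25% and 8.60%, 9.29% and 4.86%. On deviations the share had r = 0.84 with the level of *Ptpn23* over the 18 libraries. That level comes from counts scaled from TPM, in which a read on a short transcript weighs more. The retained-intron transcripts have 632 and 692 bases and the main coding transcript 5346, so part of this r follows from the scaling. In midbrain, though, Fmr1CRE 1 had the highest share of the region at a level of 37.5 CPM, below all but 1 of the midbrain libraries. For *Fam168a* the share was between 0.016% and 0.48%.

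Between the genotypes the shares did not overlap in 0 of these 4 genes in forebrain (9.4% of 7263 genes), in 1 in midbrain (8.78%) and in 2 in hindbrain (11.5%). The midbrain gene was *Fam168a*, at 0.183% to 0.259% in Fmr1CRE and 0.0168% to 0.125% in wild-type mice, which amounts to few reads. The correlation of the share with *Malat1*, both as deviations, was 0.73 for *Pcnx3*, 0.68 for *Fam168a*, 0.44 for *Clasrp* and 0.39 for *Ptpn23*. Within the 6 forebrain libraries the 4 values lay between 0.65 (*Clasrp*) and 0.98 (*Ptpn23*). In midbrain they were -0.74 for *Ptpn23*, -0.26 for *Clasrp*, 0.083 for *Pcnx3* and 0.017 for *Fam168a*, and in hindbrain 0.91 for *Pcnx3*, 0.80 for *Fam168a*, 0.012 for *Ptpn23* and -0.050 for *Clasrp*. The median of the 4 over the 18 libraries was 0.56, and 0.27 without the forebrain libraries of replicate 3. Over the 7263 genes with retained-intron and coding transcripts its median was 0.27, 74.9% were positive and 7.93% reached 0.7, so a positive value was the common case. The median retained-intron share of these genes was 5.22%. *Clasrp* was at the 96.02nd percentile, *Pcnx3* at the 76.3rd, *Ptpn23* at the 51.3rd and *Fam168a* at the 6.47th.

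**Figure D4:**
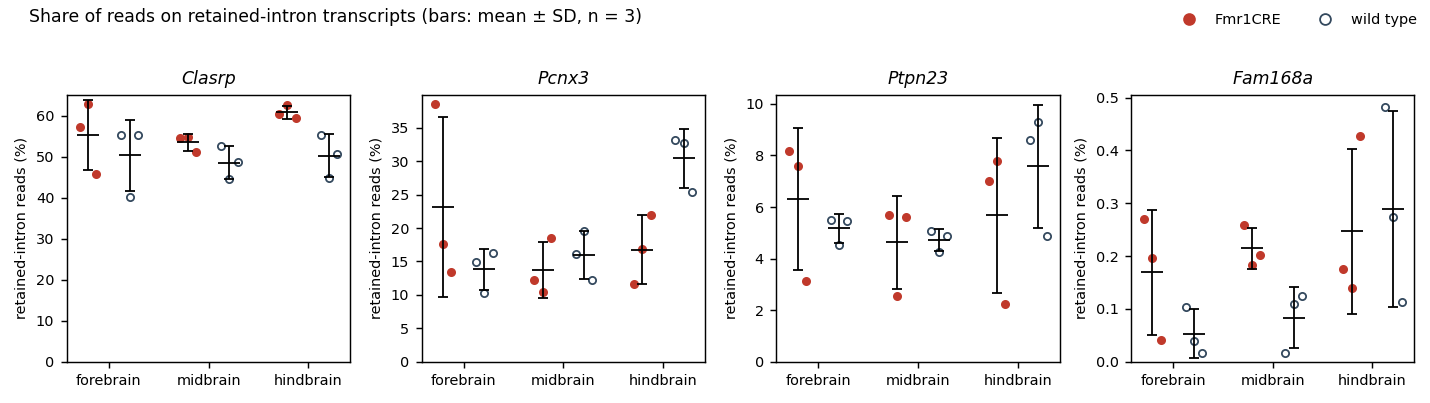
Share of reads on retained-intron transcripts (vertical axes, percent) in *Clasrp*, *Pcnx3*, *Ptpn23* and *Fam168a*, by region (horizontal axes; points, single mice, filled for Fmr1CRE and open for wild type; bars, group mean and SD, n = 3). *Clasrp* lies between 40.2% and 62.8%, and for *Pcnx3* the Fmr1CRE forebrain library 1 stands alone at 38.5%.

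Between regions, no member's share passed the test across genes. limma on the log2 odds of the share called 206 of 7263 genes between forebrain and hindbrain (2.84%), 10 between forebrain and midbrain (0.138%) and 273 between midbrain and hindbrain (3.76%). None of the 4 members was among them in any of the 3 comparisons, and the smallest adjusted p was 0.191, for *Pcnx3* between midbrain (14.9%, mean of 6 mice) and hindbrain (23.6%). Its value was lower in midbrain in 5 of 6 mice, with p = 0.0625 in a two-sided exact sign-flip permutation test over the mice. The *Clasrp* share was lower in midbrain than in hindbrain in 6 of 6 mice, at 51.0% against 55.5%, a mean difference of -4.51 ± 3.30 percentage points (SD, n = 6). The exact sign-flip permutation p was 0.03125, the smallest that 6 mice allow, and limma's adjusted p was 0.489. The test was run 12 times, for 4 genes and 3 comparisons, and the exact permutation p-values of the other 10 ran from 0.156 to 0.625.

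Regions were then compared for the levels of the 7 genes, with all 18 libraries in one edgeR fit and both genotypes averaged. Between forebrain and hindbrain, 4 of the 7 were higher in forebrain, where 51.7% of 20363 genes were called in either direction. *Pcnx3* had a median of 52.7 CPM (38.9 to 79.1) in forebrain and 30.5 CPM (23.0 to 46.5) in hindbrain, a log2 fold change of 0.77 ± 0.17 (SE, n = 6 and 6, adjusted p = 0.00129). *Atxn2l* was higher by 0.58 ± 0.14 (adjusted p = 0.00241), with a median of 143 CPM in forebrain and 105 CPM in hindbrain. The other calls were *Akap8l*, with 0.66 ± 0.20 (adjusted p = 0.0101), and *Fam168a*, with 0.56 ± 0.17 (adjusted p = 0.0127). In mean log2 CPM, *Fam168a* was at 7.83 in forebrain and 7.95 in hindbrain of Fmr1CRE mice, but at 8.41 and 7.22 in wild-type mice. *Pcnx3*, *Atxn2l* and *Akap8l* were higher in forebrain in both genotypes, *Akap8l* at 6.72 against 5.77 in Fmr1CRE and 6.07 against 5.82 in wild-type mice. Whether region differences depended on genotype was not tested. *Malat1* had 0.43 (adjusted p = 0.0858), with a median of 958 CPM in forebrain and 838 CPM in hindbrain and ranges that overlapped widely. Its mean log2 CPM was higher in forebrain in Fmr1CRE mice (10.56 against 9.51) and lower in forebrain in wild-type mice (9.87 against 10.12). *Ptpn23* had 0.46 (adjusted p = 0.180) and *Clasrp* had 0.08 (adjusted p = 0.806).

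The forebrain libraries of replicate 3 bore on some of these. Without them *Malat1* was 0.60 higher in forebrain than in hindbrain (adjusted p = 0.00568), and *Fam168a* was at 0.33 (adjusted p = 0.0630). With the mouse as a block, which the 3 regions of each animal allow, *Fam168a* was at 0.52 (adjusted p = 0.0814). On reads summed per gene, *Ptpn23* was called at 0.57 (adjusted p = 0.00608) and *Atxn2l* was not, at 0.35 (adjusted p = 0.0611). *Akap8l* had adjusted p = 0.0676 without mouse Fmr1CRE 1 and 0.0778 without wild-type 3.

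Between midbrain and hindbrain, 3 members were called, all higher in midbrain, against 49.1% of genes. *Fam168a* had a median of 330.2 CPM in midbrain and 205 CPM in hindbrain, a log2 fold change of 0.84 ± 0.18 (adjusted p = 0.000908). *Pcnx3* had 0.68 ± 0.17 (adjusted p = 0.00369), from a hindbrain median of 30.5 to a midbrain median of 49.7 CPM. *Atxn2l* had 0.38 ± 0.14 (adjusted p = 0.0324), and this call was lost in 7 of the 14 alternatives run. Its adjusted p was 0.127 with the mouse as a block, 0.258 on summed reads, 0.0919 on total counts and 0.0547 with a minimum of 10 counts. It was 0.0667 without mouse Fmr1CRE 1, 0.124 without wild-type 1 and 0.0631 without wild-type 3. *Malat1* had -0.16 (adjusted p = 0.522), and *Akap8l*, *Clasrp* and *Ptpn23* had 0.18, -0.30 and 0.30. On summed reads *Ptpn23* was called here too, at 0.62 (adjusted p = 0.00383).

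Between forebrain and midbrain, 1 member was called, *Malat1*, against 19.3% of genes. Its level was higher in forebrain by 0.59 ± 0.20 (adjusted p = 0.0491), with a forebrain median of 958 CPM and a midbrain median of 815 CPM. Mean log2 CPM was 10.56 in forebrain and 9.70 in midbrain of Fmr1CRE mice, and 9.87 and 9.68 in wild-type mice. This call was not stable. The adjusted p was 0.150 with the mouse as a block, 0.0784 on summed reads, 0.0821 on total counts, and 0.00410 (log2 fold change 0.76) without the forebrain libraries of replicate 3. It was 0.189 without mouse Fmr1CRE 1, 0.154 without Fmr1CRE 2, 0.163 without wild-type 1, 0.123 without wild-type 2 and 0.0888 without wild-type 3. *Akap8l* had 0.48 (adjusted p = 0.0959), or 0.57 (adjusted p = 0.00598) without the forebrain libraries of replicate 3. *Fam168a* had -0.28 (adjusted p = 0.291), or -0.52 (adjusted p = 0.0209) without those libraries. The other 4 lay between 0.09 and 0.38. *Pcnx3* in both comparisons with hindbrain, and *Fam168a* between midbrain and hindbrain, were called under each of the 14 alternatives run.

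**Figure D5:**
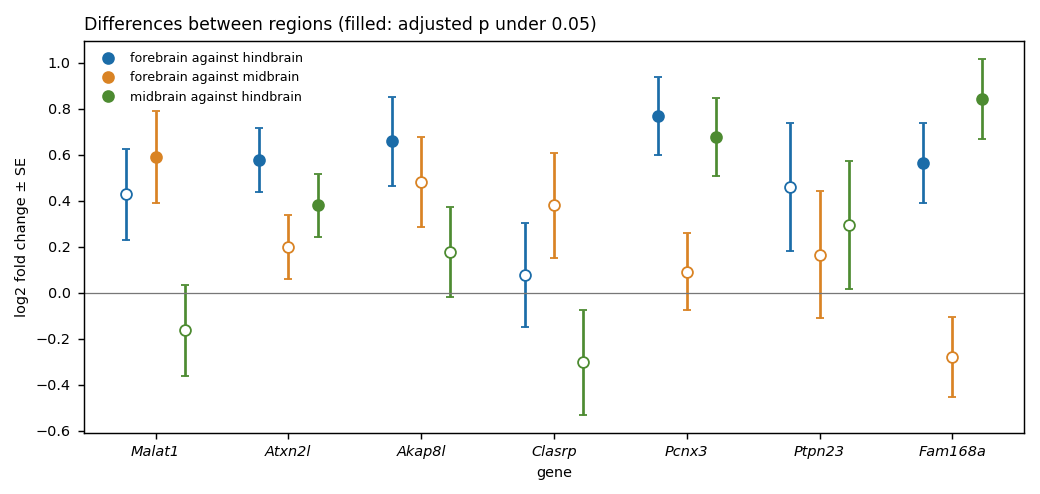
Log2 fold change of each member between regions with both genotypes averaged (vertical axis; horizontal axis, gene; colours, the 3 comparisons; points, edgeR estimates, filled where the adjusted p is under 0.05; bars, SE). *Pcnx3* is higher in forebrain and in midbrain than in hindbrain by 0.77 and 0.68, and *Fam168a* is higher in midbrain than in hindbrain by 0.84.

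Of the relatives of the members, *Pcnx2* and *Pcnx*, of the pecanex family, had the smallest p-values among those higher in forebrain than in hindbrain. They were higher by 1.02 ± 0.10 (adjusted p = 5.76e-07) and 0.83 ± 0.12 (adjusted p = 2.80e-05), and higher in midbrain than in hindbrain by 0.82 and 0.86. Of the 8 relatives, 3 were higher and 1 lower in forebrain than in hindbrain, 0 and 3 in forebrain against midbrain, and 5 and 1 in midbrain against hindbrain. *Pdcd6ip*, which encodes the ESCRT-linked protein ALIX, was lower in forebrain than in midbrain by 0.67 and *Atxn2* by 0.53. *Akap8* was lower in midbrain than in hindbrain by 0.28 (adjusted p = 0.0404).

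Of the 11 nuclear long noncoding RNAs, *Malat1* included, 4 were higher and 2 lower in forebrain than in hindbrain. *Pantr1* was higher by 1.94 ± 0.14 and *Miat* by 1.69 ± 0.27, while *Neat1* was lower by 1.17 ± 0.19 (adjusted p = 7.58e-05) and *Snhg14* by 0.68. Between midbrain and hindbrain 2 were higher, the same *Pantr1* (0.96) and *Miat* (1.31), and 2 lower, *Neat1* (-1.31) and *Snhg14* (-0.60). Between forebrain and midbrain *Pantr1* (0.98) and *Malat1* were higher and 0 lower. Of the 39 speckle and SR genes, 7 were higher and 7 lower in forebrain than in hindbrain, 1 and 0 in forebrain against midbrain, and 7 and 8 in midbrain against hindbrain. Among them *Srsf9* (0.37) and the SR kinase *Srpk1* (0.43) were higher in forebrain than in hindbrain, and *U2af1* (-0.34), a subunit of the 3′ splice site factor, and *Srsf3* (-0.31) were lower. In midbrain against hindbrain *Srrm4* (0.65), a neuronal splicing activator, and *Srpk2* (0.33) were higher and *Clk4* (-0.58), the kinase that CLASRP binds, was lower, as was *U2af1* (-0.40).

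Of the 9 paraspeckle genes, 1 was higher and 3 lower in forebrain than in hindbrain, with *Sfpq* at 0.40, *Tardbp* at -0.19 and *Neat1* as given. In forebrain against midbrain 0 were higher and 1, *Hnrnpk* (-0.26), was lower, and in midbrain against hindbrain 4 were higher, *Rbm14* (0.61) and *Sfpq* (0.54) with the smallest p, and 1 lower. Of the 77 ribosomal protein genes, 54 were higher in forebrain than in midbrain and 70 lower in midbrain than in hindbrain, with 6 higher and 20 lower in forebrain than in hindbrain. *Rps2* (0.60) and *Rpl41* (0.57) led the first and *Rpl7* (-0.62) was among the second. The mitochondrially encoded genes also had low values in midbrain, with 15 of 24 higher in forebrain than in midbrain and 15 lower in midbrain than in hindbrain, such as *mt-Co2* at 0.56 and -0.56. Between forebrain and hindbrain 2 of these were higher and 1 lower. In the genotype comparisons none of these lists had a gene called by edgeR. At an unadjusted p under 0.05, the forebrain, midbrain and hindbrain comparisons held 3, 0 and 1 of the 39 speckle and SR genes and 2, 2 and 4 of the 11 nuclear long noncoding RNAs, *Malat1* being one in forebrain and in hindbrain. Over all genes these counts were 1002 of 18467, 1135 of 18400 and 981 of 19112. The median log2 fold changes in the same order were 0.31, 0.0048 and 0.033 for the speckle and SR genes and 0.51, -0.17 and -0.25 for the nuclear RNAs, against 0.000945, -0.00455 and -0.00909 over all genes. In forebrain the nuclear RNAs summed to 14021 and 11072 CPM in the Fmr1CRE mice 1 and 2, and to 4331 CPM in Fmr1CRE 3 against 4874 to 6076 CPM in wild-type mice. The speckle and SR genes summed to 6863, 5742 and 3935 CPM in Fmr1CRE and to 3985 to 4253 CPM in wild-type forebrain, so the difference of both lists was carried by Fmr1CRE 1 and 2. Of the 77 ribosomal protein genes 0, 2 and 15 had an unadjusted p under 0.05, with a median of -0.22 in hindbrain.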

How the data were processed

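The mRNA of 18 libraries, from 6 mice and 3 regions, was sequenced by the authors as single-end reads, in 2 pools of 9 whose membership is not given. Salmon 0.14.0, DESeq2 1.30.1 and mm10 stand in the submitters' processing notes. The deposited gene values were taken for counts when the tests were chosen, but are estimated counts that the authors scaled from TPM by transcript length and rounded: rebuilding them so came within 0.171% per library, and plain sums of reads were 3.79% to 6.43% apart. The same count test was kept and the summed reads were an alternative. The authors' transcript files hold estimated counts and TPM, matched to libraries by mouse and region, 18 of 18 closest to the gene values of that name and 2 closest to those of the sample record they were listed under. A copy of log2 values after variance stabilization was not used.

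Symbols and transcript types came from GENCODE M21 (53363 of 53468 genes; the rest held 0.0438% of counts). The edgeR package (4.0.16, R 4.3.3) compared regions in 1 fit of all libraries and genotypes region by region (TMM, default filter on low counts, quasi-likelihood test, Benjamini-Hochberg threshold 0.05). A prior count of 2 went into log2 CPM. The log2 odds of the retained-intron share were tested with limma 3.58.1 over genes with a mean of at least 20 reads, with 0.5 added to each part. Both tests were tested on simulated data. P-values measure the spread between mice of 1 litter, with the counting error at 22455512 to 28061185 counts per library included.

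The 7 members and all lists were chosen with earlier results of these data known. The genes named were the members, the 5 most and 5 least like *Malat1*, and from each list with calls up to 2 higher and 2 lower with the smallest p; the extremes of correlation in each list were named after their values were seen. One gene that the rule names is not reported here. Alternatives were DESeq2 1.42.0 and its size factors, total counts, no filter, a minimum of 10 counts, a prior count of 0.5, TPM, 1 fit of all libraries, blocks, GC and length correction, and libraries left out. The 3 regions of a mouse are paired by the animal, since the labels give each mouse 1 library of each. Deviations of the same mouse in different regions correlated between -0.32 and 0.39 across genes.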

Additional observations from a re-analysis of the deposited data

Results flagged for a closer look

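The share of *Pcnx3* reads on retained-intron transcripts in forebrain was flagged because 1 library lay far from the other 5. Fmr1CRE mouse 1 was at 38.5%, and the next highest library, Fmr1CRE mouse 2, at 17.6%. The gap made up 0.741 of the whole range of the 6 libraries. Of 33 sets of 6 libraries checked in this way 1 was flagged, and chance flags about 1 in 20.

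The genotype difference of *Atxn2l* was flagged because every Fmr1CRE library lay below every wild-type library in midbrain (log2 fold change -0.53) and above every one in hindbrain (0.59). The difference between the regions was not tested.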

How the results depend on the processing

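Counts of genes called between genotypes were small in edgeR and depended on the tool. For forebrain, midbrain and hindbrain in turn, DESeq2 called 31, 62 and 59 genes and 1 fit of all 18 libraries 1, 0 and 1. With no filter on low counts edgeR called 11 in midbrain and 11 in hindbrain, with a minimum of 10 counts 0 in midbrain, without replicate 3 of both genotypes 3 and 1, and on reads summed per gene, an alternative chosen after seeing the data, 2 and 1. Leaving out 1 mouse at a time gave 0 to 4 in midbrain and 0 to 5 in hindbrain, and 2258 to 4001 between forebrain and midbrain.

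The median size of r with *Malat1* over the 6 genes was 0.68, 0.37 without the forebrain libraries of replicate 3 and 0.36 without forebrain, the latter chosen after seeing the data. The median r of the retained-intron shares with *Malat1* was 0.56, and 0.27 without those forebrain libraries.

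Counts of retained-intron shares called, between forebrain and hindbrain, forebrain and midbrain, and midbrain and hindbrain, were 73 to 160, 3 to 91 and 15 to 193 with 1 mouse left out, and 135, 38 and 437 without the forebrain libraries of replicate 3. With the mouse as a replicate block the last 2 were 5 and 165. Among the members this block took away the calls of *Malat1* (forebrain against midbrain, 0.60), *Fam168a* (forebrain against hindbrain, 0.52) and *Atxn2l* (midbrain against hindbrain, 0.42) and changed no other call. Between genotypes the replicate number is only a number (correlations of deviations -0.35 to 0.22), and the fits with that number as a block called 0, 1 and 0 genes, the midbrain call being 1 higher gene in place of 1 lower gene.

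Reversals were confined to members that were not called. *Clasrp* between forebrain and hindbrain was at -0.0581 on total counts, at -0.0623 on summed reads and at -0.131 to 0.24 with 1 mouse left out. Between forebrain and midbrain, *Pcnx3* was at -0.0492 on summed reads (-0.0727 to 0.24 with 1 mouse left out) and *Ptpn23* at -0.0467 (-0.0389 to 0.51), and between midbrain and hindbrain *Ptpn23* was at -0.0304 to 0.48. Differences of the retained-intron share, in log2 odds, that reversed were those of *Pcnx3* (-0.0425 to 0.63) and *Ptpn23* (-0.00844 to 0.61) between forebrain and midbrain with 1 mouse left out. Without the forebrain libraries of replicate 3, that of *Ptpn23* between forebrain and hindbrain was 0.0505 and that of *Fam168a* between forebrain and midbrain 0.0793. The cause of these changes was not tested. Depth was not varied, and the *Fam168a* share, at most 0.48% of its reads, is the smallest of the 4.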
